A study of Mus musculus with 16 samples.

Results

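Chromatin loops that carry the start site of a protein-coding gene at both ends were examined in whole mouse cochlea. A loop here is a pair of 10 kb bins of the genome, its anchors, that met more often than their surroundings in Micro-C contact maps. A loop belonged to the set when each anchor bin, widened by 10 kb on either side, contained a protein-coding 5′ end from GENCODE vM21 and no gene served both anchors. The rule used positions only, and neither the strength of a loop nor any level of expression entered it. Genes whose start sites lay at the opposite widened anchors of a loop are called joined below. Of the 6689 loops on chromosomes 1 to 19 in the deposited list, 618 met it (9.24%, 95% Wilson interval 8.57% to 9.96%). Another 2721 loops had a start site at 1 widened anchor and 3350 at neither. All intervals on shares of loops cover counting error over loops only. Loops that share an anchor are not independent, and no spread between animals or replicates can be given.

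The study profiled cochleae dissected from mice labelled as postnatal day 0, with no genetic change or treatment named in the labels, and the Micro-C library was made in 4 replicates, 1 of them described as technical, that were merged before loops were called. Whole cochlea mixes hair cells, supporting cells, neurons, mesenchyme and other cells, so that a loop cannot be assigned to a cell type, and a contact in few cells cannot be told apart from a weak contact in many. Accessibility (ATAC-seq) and CUT&RUN libraries of the same tissue belong to the series and were not analysed here. Every position below is on the mm10 build (GRCm38), counted from 1.

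By current understanding, cohesin extrudes loops of chromatin until it meets CTCF, a zinc finger protein bound to DNA, and loops form most readily between CTCF sites whose motifs point towards each other. Start sites are the other common kind of loop anchor. Promoters can be joined to distal enhancers, and promoters can also be joined to each other, as has been described for housekeeping genes in shared transcription sites and for developmental gene clusters held in repressive Polycomb contacts. In the inner ear, much of the interest in loops concerns genes of hearing loss and the transcription factors that pattern the cochlea.

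The sequences that mark the ends of the strongest named loops are shown first, because the orientation of CTCF motifs at the anchors is the sequence feature most often tied to a loop. Each run of 30 bases is read 5′ to 3′ on the strand of the match, and capitals mark the best match of the 14-base CTCF consensus in that anchor bin, with at most 1 mismatch. The first 5 loops are those of lowest FDR (false discovery rate) among the named loops with single-orientation matches at both anchors. The last 2 are the family pairs of lowest FDR with such matches. A bin whose best matches on the opposite strands tied was given no orientation. A match is a description of the letters. CTCF CUT&RUN libraries of this tissue belong to the series but were not analysed here, so binding at these matches was not examined.
Hs1bp3 to Rhob, left anchor, chr12:8320255-8320284, plus strand: cagttaggCCAGCAGGGGGTGCtcatccct
Hs1bp3 to Rhob, right anchor, chr12:8502763-8502792, minus strand: gaatactgCCACAAGGTGGCGCtaaaatct
Pxdc1 to Prpf4b, left anchor, chr13:34643112-34643141, plus strand: gaatttgaCCAGCAGAGGGTGCcaaaacac
Pxdc1 to Prpf4b, right anchor, chr13:34864603-34864632, minus strand: tacatcttCCAGCAGAGGGCAGtaaaggac
Eid1 to Shc4, left anchor, chr2:125660160-125660189, plus strand: cagatcatCCACCAGATGGTGCtgtgggac
Eid1 to Shc4, right anchor, chr2:125736542-125736571, minus strand: tccgacagCCAGTAAATGGCAGatctggaa
Hmx1 to Cpz, left anchor, chr5:35379249-35379278, minus strand: aaaagatgCCAGCAGGGGGCAGtctccatc
Hmx1 to Cpz, right anchor, chr5:35510793-35510822, minus strand: agattgtaCCAGCAGGGGGCAGtgctacca
Tekt1 to Ggt6, left anchor, chr11:72355145-72355174, plus strand: ccagtgttCCACCAGGGGGCGCagtcctac
Tekt1 to Ggt6, right anchor, chr11:72428779-72428808, minus strand: ctactttgCCTCCAGGTGGCGCtcttggga
Fabp5 to Fabp12, left anchor, chr3:10009555-10009584, plus strand: cgctactaCCACTAGGTGGCAAtagagtga
Fabp5 to Fabp12, right anchor, chr3:10307089-10307118, minus strand: agcagtatACAGCAGAGGGCGCtagtgcac
Hs3st3b1 to Hs3st3a1, left anchor, chr11:63925430-63925459, plus strand: ctgcccgcCCACCAGGGAGCGCtccgacct
Hs3st3b1 to Hs3st3a1, right anchor, chr11:64442388-64442417, minus strand: gtattttaCCACTAGGTGGCGCtacacaac
In 6 of these 7 loops the left match lay on the plus strand and the right match on the minus strand, so that the motifs pointed into the loop. The exception was the loop from Hmx1 to Cpz, where both matches lay on the minus strand. The left matches of Hs1bp3, Pxdc1 and Tekt1 lay in introns of those genes, that of Eid1 to Shc4 lay in an intron of Shc4, and the right matches of the Cpz and Hs3st3a1 anchors lay in introns of those genes. The left match of Hmx1 overlapped an exon of a gene that is not protein-coding. The other matches lay outside protein-coding genes.

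How many loops the set held depended on the widening by construction. With no widening, 100 loops had a start site in both bare bins, with 5 kb there were 316, and with 20 kb there were 1300. Among the 618 loops, a start site lay inside the bare bin at both anchors in 100 (16.2%), at 1 anchor in 286 (46.3%) and at neither in 232 (37.5%, 95% interval 33.8% to 41.4%). The start site nearest to the centre of an anchor bin was a median of 6630.5 bp away from it, where the rule allowed up to 15 kb. A single gene stood at each anchor in 325 loops (52.6%), and 68 loops (11.0%) had 2 or more genes at both. In all, the anchors held the start sites of 1560 genes, 7.5% of the 20807 autosomal protein-coding genes, and 319 of these genes also stood at an anchor of a loop with a start site at 1 end.

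The loops with start sites at both ends were short. Their median distance was 180 kb (95% interval of the median 160 to 190 kb), with quartiles of 110 and 290 kb, against 250 kb (240 to 260 kb) for loops with a start site at 1 anchor and 330 kb (320 to 340 kb) for loops with none. The intervals of the medians of the 3 classes did not overlap. Distances under 200 kb made up 350 of the 618 loops (56.6%, 52.7% to 60.5%), against 38.3% and 26.6% of the other classes. At the far end, 10 of the 618 loops (1.62%, 0.881% to 2.95%) spanned 1000 kb or more, against 5.59% and 8.12%. No test over samples can be made on a single merged list.

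**Figure D1:**
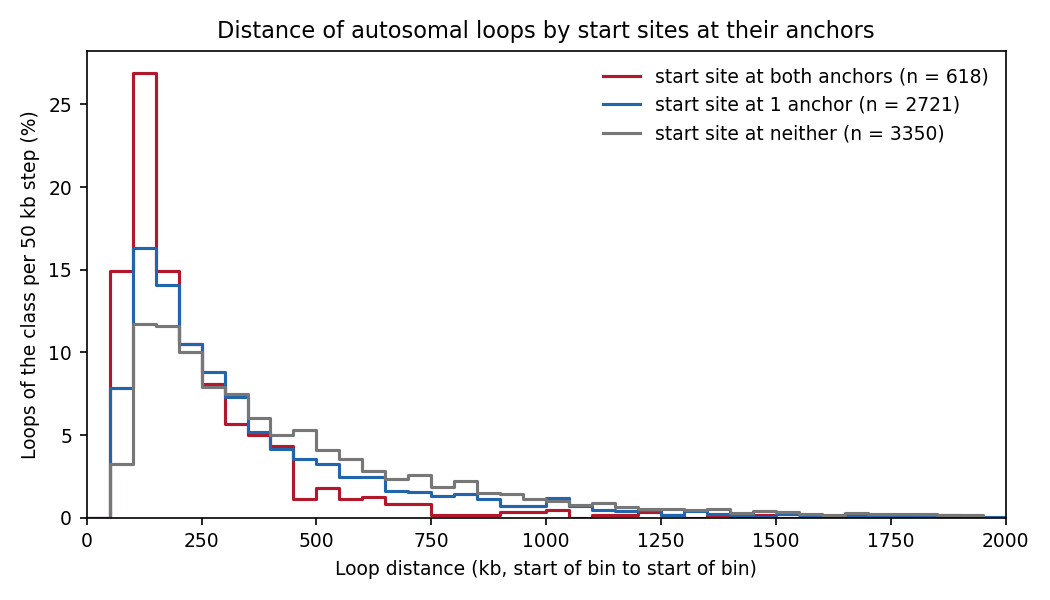
Share of loops in each 50 kb step of distance (kb, x axis; percent of the class, y axis) for autosomal loops with start sites at both anchors, at 1 anchor and at neither. The class with start sites at both anchors has its highest step at 100 to 150 kb, with 26.9% of its loops.

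The loop caller gave these loops much the same FDR as the others. An FDR below 0.05 was listed for 493 of the 618 loops (79.8%, 76.4% to 82.8%), beside 79.0% of all autosomal loops. Below 0.01 there were 280 (45.3%, 41.4% to 49.2%), beside 48.1% of all. The median FDR was 0.0135, against 0.0119 for loops with a start site at 1 anchor and 0.0104 for loops with none. The smallest detection scale was assigned to 491 of them (79.4%, 76.1% to 82.4%), against 73.1% and 69.0% in the same order.

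The loop of lowest FDR joined Hs1bp3 and Rhob, which encodes a small GTPase, on chromosome 12. It connected the bins at 8320001 and 8500001, 180 kb apart, with an FDR of 1.88e-07. The genes pointed towards each other, and no other start site lay between the widened anchors. The start site of Rhob lay in its bare bin, and that of Hs1bp3 lay only in the widened anchor. Next came a loop of 110 kb on chromosome 1 (FDR 3.48e-07) from Rpl37a, a protein of the large ribosomal subunit, to Igfbp2, which binds insulin-like growth factors. Both genes are on the plus strand, neither start site lay in its bare bin, and neither bin had a CTCF match with a single orientation. On chromosome 15, Dpys, an enzyme of pyrimidine breakdown, was joined to 9330182O14Rik at 260 kb (FDR 1.36e-06).

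The products of the genes joined by the other loops among the 10 of lowest FDR have varied functions. A loop of 130 kb on chromosome 18 (FDR 1.93e-06) had Tmed7 and the translation initiation factor Eif1a at one anchor and Cdo1, the autophagy gene Atg12 and Ap3s1 at the other. On chromosome 6, a loop of 110 kb (FDR 2.05e-06) ran from Ggcx, the vitamin K-dependent carboxylase, and Mat2a, which makes S-adenosylmethionine, to Sh2d6 and Capg, an actin-capping protein. The chemokine gene Cxcl14 was joined at 140 kb to Gm3045 and the mitochondrial carrier Slc25a48 on chromosome 13 (FDR 2.64e-06). A second loop of that chromosome, of 220 kb, joined Pxdc1 and Prpf4b, a kinase of the splicing machinery (FDR 5.97e-06). These 2 loops both had genes pointing away from each other.
Cd24a, a cell-surface glycoprotein, was joined to Qrsl1 and Rtn4ip1 at 340 kb on chromosome 10 (FDR 6.11e-06). The loop from Tg, which encodes thyroglobulin, to Ccn4, a secreted matricellular protein, spanned 220 kb on chromosome 15 (FDR 7.57e-06) and was the only one of the 10 with both start sites inside the bare bins. The tenth, from Tmem30a, a subunit of lipid flippases, to Filip1, spanned 200 kb on chromosome 9 (FDR 7.82e-06). None of these 10 loops joined genes of 1 family.

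The 5 shortest loops, with ties in distance ordered by FDR, spanned 60 or 70 kb, and in each of them the CTCF matches pointed into the loop. Among all 30 loops of the set at 60 or 70 kb, 11 had matches of that kind, beside 97 of all 618 loops. Both counts are over all loops, including those without an assigned match at both anchors. The shortest, of 60 kb on chromosome 18 (FDR 0.00212), joined Cdc23, a subunit of the anaphase-promoting complex, with Gfra3, a receptor of the GDNF family, and Gm3550. At 70 kb, the loops of lowest FDR were Eid1 to Shc4 (0.0001) and Tekt1 to Smtnl2 and Ggt6 (0.000203). The loop from Bcas1 to Pfdn4 and Cyp24a1, which inactivates vitamin D, followed with an FDR of 0.000704. The loop from Nr6a1, an orphan nuclear receptor, and Olfml2a to Wdr38, Arpc5l and the ribosomal gene Rpl35 had an FDR of 0.000713.

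The 5 longest loops spanned 1200 to 1490 kb. The longest, on chromosome 13, ran from Htr1a, a serotonin receptor, to Ipo11, a nuclear import receptor, with an FDR of 0.00413 and no start site in between. A loop of 1360 kb joined BC030870 and Tma16 on chromosome 8 and was close to the limit of the list, with an FDR of 0.0993. Crbn, the substrate receptor of a ubiquitin ligase, was joined to Setmar at 1250 kb on chromosome 6 (FDR 0.000952). Haspin, a mitotic histone kinase, was joined to the olfactory receptor gene Olfr412 at 1240 kb on chromosome 11 (FDR 0.000777). That loop passed over 41 start sites, the most of any of the 618. Paqr3 and Cfap299 stood at the ends of the last one, of 1200 kb on chromosome 5 (FDR 0.000534).

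Which way the joined genes point was read from the gene nearest to each bin centre. The nearest genes were on the same strand in 287 of the 618 loops (46.4%, 42.5% to 50.4%). Both were forward in 135 loops (21.8%) and both reverse in 152 (24.6%). They faced into the loop in 154 (24.9%, 21.7% to 28.5%) and out of it in 177 (28.6%, 25.2% to 32.3%). As background, all 628373 pairs of autosomal start sites 60 to 1960 kb apart were counted, of which 24.5% were both forward, 26.0% both reverse, 25.1% facing inward and 24.4% facing outward. Each share of the loops lay within 5 percentage points of the share of all pairs, and the interval of the outward share lay just above its background value.
Split by distance, the outward share was 27.1% (22.8% to 32.0%) under 200 kb, beside 24% of all pairs, and 26.0% at 200 to under 400 kb, beside 24.5%. Among the 87 loops of 400 kb or more it was 40.2% (35 loops, 30.6% to 50.7%), beside 24.4% of all pairs, while the share with both genes reverse was 14.9% (8.95% to 23.9%), beside 25.9%. The outward share of these long loops was 40.6% (26 of 64) at an FDR below 0.05 and 41.7% (25 of 60) where 1 gene stood at each anchor. This was 1 of 12 shares compared, it was not tested, and some of the long loops share a gene, such as Paqr3, which stood at the left end of 2 of them.

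**Figure D2:**
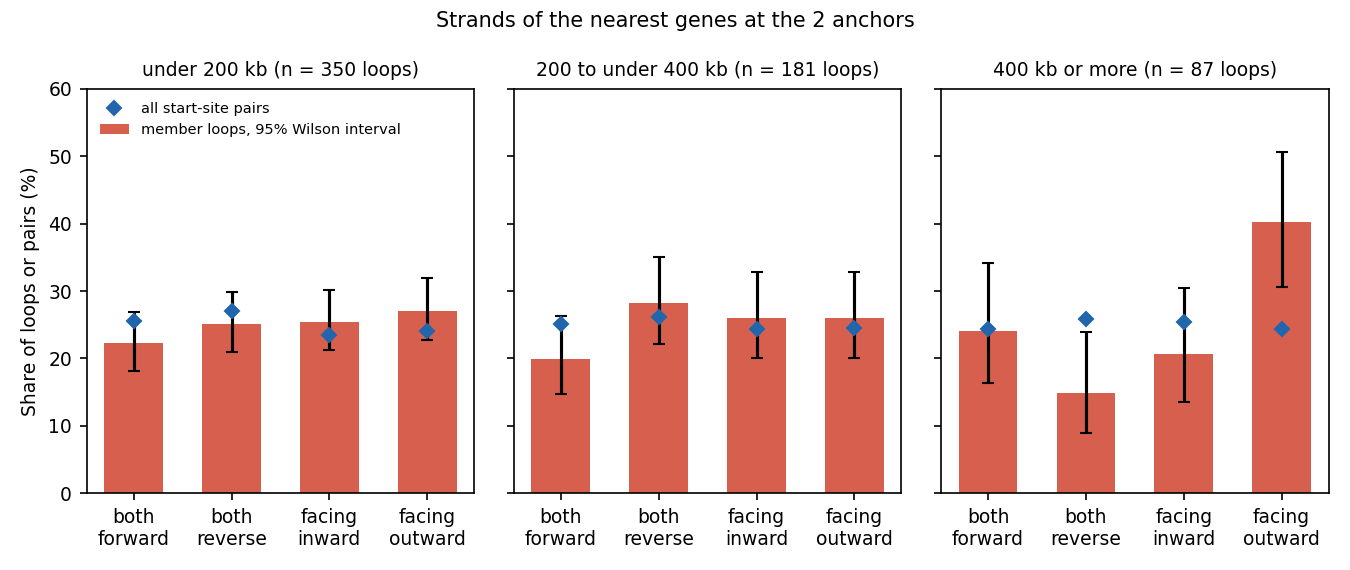
Share of loops with start sites at both anchors (bars, percent, with 95% Wilson intervals) by the strands of the nearest genes, in 3 bands of distance, beside all start-site pairs of the same band (diamonds). At 400 kb or more, genes facing outward make up 40.2% of 87 loops against 24.4% of all pairs.

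Loops often skipped over other genes. No protein-coding start site lay between the widened anchors in 168 loops (27.2%, 23.8% to 30.8%), 1 lay there in 132 (21.4%), 2 in 109 (17.6%) and 10 or more in 24 (3.88%). The median was 2, against 1 in each of the other classes. The share with none was 41.5% (39.6% to 43.3%) for loops with a start site at 1 anchor and 20.1% (18.8% to 21.5%) for loops with none at their anchors, so that the other classes lay on opposite sides of the 27.2%. At 200 to under 400 kb, 18.8% (13.8% to 25.1%) of the loops with start sites at both ends had no start site inside, against 30% (28.0% to 32.1%) of the other classes pooled, and the medians were 2 and 1. The shares were 34.0% and 38.8% under 200 kb and 17.2% and 21.5% at 400 kb or more, with overlapping intervals in both bands.
In 30 loops (4.85%, 3.42% to 6.85%) a gene that started at one anchor was long enough to reach the bin at the other. The left gene did so in 11 of them and the right gene in 19. The loop of lowest FDR among them was crossed by Nfix, a transcription factor gene of 100 kb, joined to Lyl1 and G430095P16Rik at 90 kb (FDR 3.69e-05). Next came loops crossed by Ppard, a nuclear receptor of fatty acids, joined to Fance at 80 kb (9.95e-05), and by Shc4, joined to Eid1 (0.0001). The loop from Barhl1 to Cfap77 was also crossed, by Cfap77 (128 kb). In these loops, contact of a start site with a distant part of its own gene and contact with the start site of the other gene cannot be told apart.

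Few loops joined genes of 1 family. Proteins that matched over at least 50% of the shorter one with a blastp E-value of at most 1e-10 stood at opposite ends of 19 loops (3.07%, 1.98% to 4.75%). By the nearest genes alone there were 16 (2.59%, 1.6% to 4.16%), beside 9.49% of all pairs of start sites in the same range of distance. Many of the family pairs of the genome are olfactory and vomeronasal receptors, which sit in large clusters. With pairs of such receptors left out, the shares were 13 of 615 loops (2.11%, 1.24% to 3.58%) and 3.14% of all pairs. In the band under 200 kb, where 348 such loops lie, they were 2.59% (1.37% to 4.84%) and 7.35%, and at 200 to under 400 kb 1.11% (0.305% to 3.96%) and 5.05%. At 400 kb or more they were 2.30% of 87 loops (2 loops, 0.633% to 8.0%) and 2.32% of pairs. In that band the loops reached 1490 kb and the pairs 1960 kb, and distances within it were not matched. The interval of the loops lay below the share of all pairs in the first 2 bands, and the difference was not tested.

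Among the family pairs, that of lowest FDR joined the alcohol dehydrogenase genes Adh7 and Adh4 on chromosome 3, 210 kb apart (FDR 6.51e-05), whose proteins are 51.5% identical over the matched stretch. Adh7 oxidises retinol. Keratin genes followed on chromosome 15, where Krt72 was joined to Krt78 at 190 kb (FDR 0.000148, 50.7% identity) and, on its other side, to Krt84 at 250 kb (FDR 0.00144, 57.7%). The fatty acid binding protein genes Fabp5 and Fabp12 were joined at 300 kb on chromosome 3 (FDR 0.000277, 51.6%), with the genes pointing towards each other. The heparan sulfate sulfotransferase genes Hs3st3b1 and Hs3st3a1 were joined at 520 kb on chromosome 11 (FDR 0.000383), and their matched stretch, 66.2% of the shorter protein, was 99.6% identical. F930015N05Rik has its start site at the same right anchor. Hs3st3a1 and F930015N05Rik were also joined to Cox10, an assembly factor of cytochrome oxidase, by a loop of 350 kb that ended in another bin (FDR 0.023).
Guanylate binding protein genes, which are induced by interferon, gave 2 loops from Gbp5 on chromosome 3. One ran to Gbp3 at 70 kb (FDR 0.000803, 52.0% identity) and the other to Gbp2 at 140 kb (FDR 0.0113, 63.0%), and all these genes are on the plus strand. The potassium channel genes Kcna2 and Kcna10 were joined at 90 kb (FDR 0.00274, 66.3%), also both on the plus strand, with no start site between. Col6a2 and Col6a1, which encode chains of collagen VI, were joined at 100 kb on chromosome 10 (FDR 0.00863, 32.7%). Both start sites lay within the bare bins, both genes are on the minus strand, and Col6a1 was also joined to Lss, an enzyme of sterol synthesis, at 190 kb (FDR 0.0125).
The serine protease inhibitor genes gave 2 loops, Serpinb1c to Serpinb1b on chromosome 13 (160 kb, FDR 0.0171, 78.3%) and Serpina11 to Serpina3n on chromosome 12 (420 kb, FDR 0.0195, 44.0%). Eppin, at an anchor shared with Wfdc6a, was joined to Spint5 at 130 kb (FDR 0.0182), another pair of protease inhibitors. Olfactory receptor genes stood at both ends of 3 loops, Olfr90 and Olfr91 to Olfr94 and Olfr95 (120 kb, FDR 0.0127), Olfr556 to Olfr571 and Olfr572 (240 kb, FDR 0.0154) and Olfr1414 to Olfr1410, Olfr1411 and Olfr12 (80 kb, FDR 0.0929). The remaining pairs were Lypd6b with Lypd6, the receptor genes Gpr171 and Sucnr1 at 1000 kb, the peptidylarginine deiminase genes Padi4 and Padi2, and Pcsk6, a proprotein convertase, with the predicted gene Gm45213. The last pair matched at 98.1% identity over 52.0% of the shorter protein, and Pcsk6 is itself long enough to reach the other anchor.

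**Figure D3:**
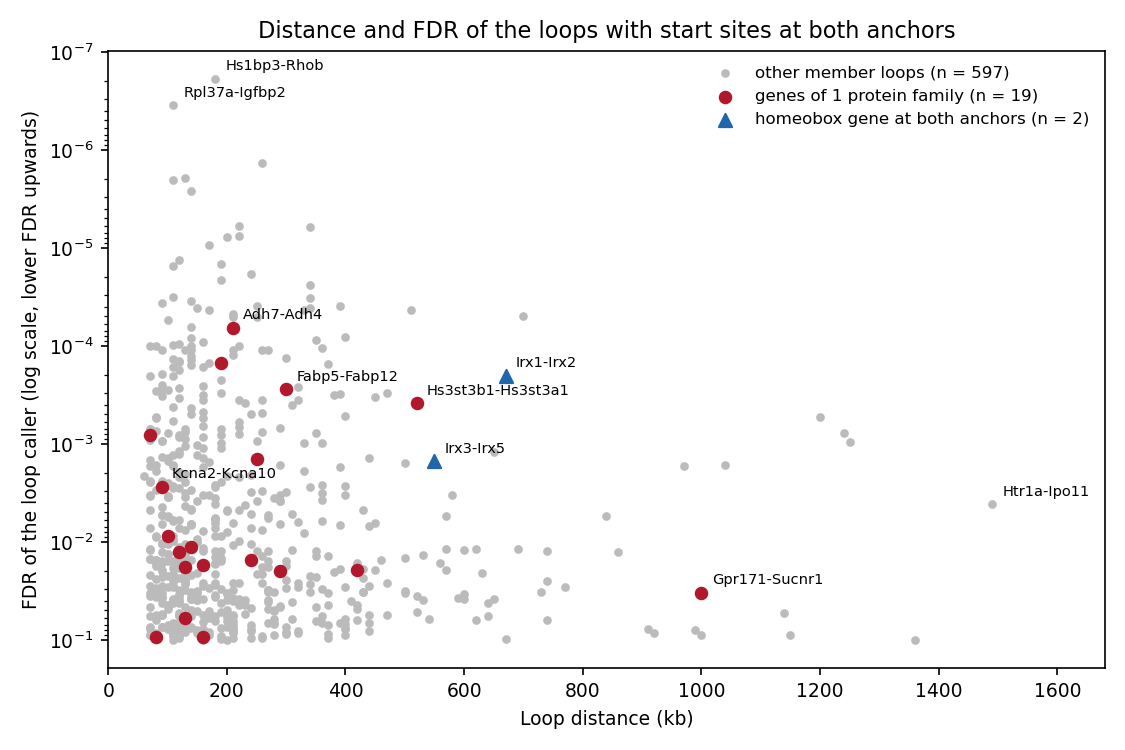
Distance (kb, x axis) and FDR of the loop caller (log axis, lower values upwards) of the 618 loops with start sites at both anchors. Family pairs (red) spread over the range of FDR from 6.51e-05 to 0.0939, and the 2 loops between homeobox genes (triangles) lie at 550 and 670 kb.

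Genes of the transcription factor and signalling lists stood at both ends of 2 loops, and both joined Iroquois homeobox genes, which lie in 2 clusters of the mouse genome and take part in patterning. Irx1 and Irx2 were joined on chromosome 13 at 670 kb, between bins at 71950001 and 72620001, with an FDR of 0.000201. Irx3 and Irx5 were joined on chromosome 8 at 550 kb, between bins at 91800001 and 92350001, with an FDR of 0.00151. In both loops the genes point away from each other, and no protein-coding start site lies between the anchors. They share a family by symbol, but the best protein match covered 30.4% of the shorter protein for Irx1 and Irx2 (55.6% identity) and 15.3% for Irx3 and Irx5 (84.8%), so that neither counts among the 19 pairs above. Both start sites of the second loop lay inside the bare bins.
Because these start sites fall in the anchor bins themselves, the 250 bases before each are shown, 5′ to 3′ on the strand of the gene, with capitals for GGGCGG or its complement CCGCCC. These letters occur in the window from 250 bases before to 50 after the start site in 43.7% of all autosomal protein-coding genes, on either strand.
Irx3, chr8:91802068-91802317, minus strand: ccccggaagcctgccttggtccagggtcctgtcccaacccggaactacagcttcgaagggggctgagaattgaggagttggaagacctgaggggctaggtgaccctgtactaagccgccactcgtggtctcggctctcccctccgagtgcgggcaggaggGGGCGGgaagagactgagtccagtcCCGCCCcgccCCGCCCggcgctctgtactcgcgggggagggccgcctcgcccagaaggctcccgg
Irx5, chr8:92357375-92357624, plus strand: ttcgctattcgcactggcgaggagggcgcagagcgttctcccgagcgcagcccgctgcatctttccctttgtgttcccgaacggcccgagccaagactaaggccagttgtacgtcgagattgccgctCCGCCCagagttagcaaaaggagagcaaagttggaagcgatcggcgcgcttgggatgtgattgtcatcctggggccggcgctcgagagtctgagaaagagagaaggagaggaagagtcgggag
The run of Irx3 holds 3 such matches and that of Irx5 holds 1. The run of Irx3 overlaps an exon of a gene that is not protein-coding. Both were chosen for printing after the values of the loop were seen.

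In 63 further loops a gene of the homeobox, other transcription factor, Wnt, Fgf, Bmp, Notch or Hedgehog lists stood at 1 anchor and a gene outside them at the other, and 553 loops had none. Hox genes were at an end of 4 loops, each time with a gene outside the Hox clusters at the other end. Hoxc8 and Hoxc6 were joined to Smug1, a DNA glycosylase, at 170 kb on chromosome 15 (FDR 0.000148). Skap2 was joined to Hoxa4, Hoxa5 and Hoxa6 at 190 kb on one side of the Hoxa cluster (FDR 0.000304), and Hoxa13 was joined to Tax1bp1 at 460 kb on its other side (FDR 0.0153). Hoxb9, Hoxb8 and Hoxb7 were joined to Snx11 and Cbx1, a heterochromatin protein, at 500 kb on chromosome 11 (FDR 0.0318). Of the Wnt genes, Wnt9a was joined to Zfp867 at 160 kb (FDR 0.00047), Wnt7a to Hdac11, and Wnt1 and Ddn to Ddx23, a helicase of the spliceosome, at 140 kb (FDR 0.0335). Dkk1, a secreted Wnt inhibitor, was joined to Mbl2 at 310 kb (FDR 0.000401).

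Among genes that direct cochlear development, 9 of a list of 115 stood at an anchor, in 8 loops. Hmx1, a homeobox gene of sensory organs, was joined to Cpz, a carboxypeptidase with a Frizzled-like domain, at 140 kb (FDR 0.000111). Id3, an inhibitor of bHLH factors, was joined to the ribosomal gene Rpl11 at 90 kb (FDR 0.000278). Barhl1, a homeobox gene that hair cells need to survive, was joined to Cfap77 at 120 kb on chromosome 2 (FDR 0.00126), with both genes on the minus strand and neither start site in its bare bin. The loop of Irx3 and Irx5 is given above. Fgf8, which inner hair cells secrete to guide the neighbouring pillar cells, and Npm3 were joined to Poll and Gm17018 at 170 kb on chromosome 19 (FDR 0.00336).
Lower in the list, Wnt7a was joined to Hdac11, a histone deacetylase, at 260 kb (FDR 0.0263). Ptch1, the Hedgehog receptor, was joined to Ercc6l2 at 240 kb (FDR 0.0476), with both start sites within the bare bins. Vangl2, a core planar cell polarity protein that orients hair bundles, was joined to Kcnj9, a potassium channel, at 280 kb over 10 other start sites (FDR 0.0678). In none of these 8 loops other than that of Irx3 and Irx5 was the partner gene on the same list.

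Of 128 genes of hereditary hearing loss, 4 were at an anchor, in 4 loops whose FDR lay between 0.0377 and 0.0813, and 3 of these loops are described. Strc encodes stereocilin, which couples the stereocilia of outer hair cells. It was joined to Tubgcp4 and Zscan29 at 210 kb on chromosome 2 (FDR 0.0377), with both start sites in the bare bins. Col9a2, which encodes a chain of collagen IX of the tectorial membrane, stood with Smap2 at the end of a loop of 200 kb to Rlf (FDR 0.0637). Gjb2, whose loss is the most common cause of inherited deafness, was joined at 320 kb on chromosome 14 to Ift88, a gene of cilium assembly (FDR 0.0813). The last 2 of these loops are not listed at an FDR below 0.05.
The study names genes at several loci, and 10 of them were looked up here, of which 4 were at an anchor of the set. Besides Barhl1 and Cfap77, these were Plekha6 and Snrpe, a core protein of splicing particles, joined at 450 kb on chromosome 1 over 7 other start sites (FDR 0.00636). Plekha6 was also joined to Ren1, which encodes renin, and Etnk2 at 210 kb (FDR 0.0852). Nr2f1, Mctp1, Dlx5, Dlx6, Dync1i1 and Bdnf were at no loop of the set.

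A few loops that the protein families leave out joined genes whose products work in 1 complex, act in the same tissue or share a symbol, and they were picked after the list was read. Kcnj11 and Abcc8 encode the pore and the regulatory subunit of the ATP-sensitive potassium channel. They were joined at 100 kb on chromosome 7 (FDR 0.00337), and Kcnj11 was also joined to Myod1, the muscle regulator, at 270 kb (FDR 0.0308). Ifnar2 and Ifnar1 encode the chains of the receptor of type I interferons and were joined at 130 kb on chromosome 16 (FDR 0.0271). Dmp1 and Mepe, which encode secreted proteins of mineralised matrix, were joined at 120 kb on chromosome 5 (FDR 0.0186). Scara5 was joined to Scara3 and Clu at 300 kb on chromosome 14 (FDR 0.0248).

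Housekeeping genes made up more of the genes at these anchors than of all genes. Subunits and assembly factors of the mitochondrial respiratory chain were 20 of the 1560 genes (1.28%, 0.831% to 1.97%), against 0.49% of all autosomal genes and 0.702% of the 2565 genes at loops with 1 start-site end. Splicing and RNA processing genes were 26 (1.67%, 1.14% to 2.43%), against 0.956% and 0.975%, and cytosolic and mitochondrial ribosomal proteins were 23 (1.47%, 0.984% to 2.2%), against 0.836% and 1.09%. For these 3 of the 23 lists compared, the interval of the share lay above the share of all genes. Intervals on shares of genes treat genes as independent, although genes at the same anchor enter together. Proteasome and ubiquitin genes, at 1.92% (1.35% to 2.73%) against 1.75% of all genes, lay close to the background.
Examples show these genes at loop ends with varied partners. Atp5o, a subunit of ATP synthase, was joined to the potassium channel subunit Kcne2 at 340 kb (FDR 3.21e-05). Ndufaf6, an assembly factor of complex I, was joined to Trp53inp1 at 80 kb (FDR 0.000286). A gene of these housekeeping lists stood at both ends of 2 loops. Wdr4 and Ndufv3, a subunit of complex I, were joined to the splicing factor U2af1 at 130 kb (FDR 0.00205), and Mrpl39, a mitochondrial ribosomal protein, was joined to Atp5j and Gabpa, an activator of mitochondrial genes, at 90 kb (FDR 0.0156). Another 96 loops had such a gene at 1 end.

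Developmental and adhesion genes made up more of the genes at loops with 1 start-site end than of those at loops between start sites. The cochlear regulators were 0.577% (0.304% to 1.09%) of the genes with a loop between start sites, close to 0.553% of all genes, but 2.65% of the genes at loops with 1 start-site end, where 68 of the 115 genes of the list stood. Homeobox genes were 1.28% against 3.12%, other transcription factors 2.05% against 4.87% and axon guidance genes 0.321% against 1.33%. Over all genes these lists made up 0.947%, 2.14% and 0.37%, each within the interval of the loops between start sites. Cell adhesion genes were 0.192% (0.0654% to 0.564%) against 2.07%, and lay below their share of 1.01% of all genes. The 3 adhesion genes at the anchors were Cldn12, Itgal and Pcdh12, of 211 on the list. Hearing loss genes made up 0.256% (0.0998% to 0.657%), beside 0.615% of all genes and 0.819% of those at loops with 1 start-site end.
Of the signalling lists, the Wnt pathway had 10 of 75 genes at an anchor (0.641% of the 1560 genes, against 0.36% of all genes) and the Bmp and Tgf-beta pathway 5 of 73 (0.321% against 0.351%). The Fgf pathway had 3 of 39 (0.192% against 0.187%), the Hedgehog pathway 2 of 17 (0.128% against 0.0817%) and the Notch pathway 0 of 29 (upper Wilson limit 0.246%, against 0.139%). The interval of each of these 5 lists includes the share of all genes. Extracellular matrix genes (16 of 182), ion channels and gap junctions (24 of 287), immune clusters (42 of 578), zinc finger genes (22 of 415) and histones (5 of 80) had shares whose intervals include that of all genes. Keratins, at 4 of 106, did as well. Solute carriers (14 of 343) and olfactory and vomeronasal receptors (21 of 1473, 1.35% of the genes against 7.08% of all) lay below it. The lists were chosen by symbol, so that some members have another function, such as Trpc4ap among the channels, and none of these differences was tested.

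**Figure D4:**
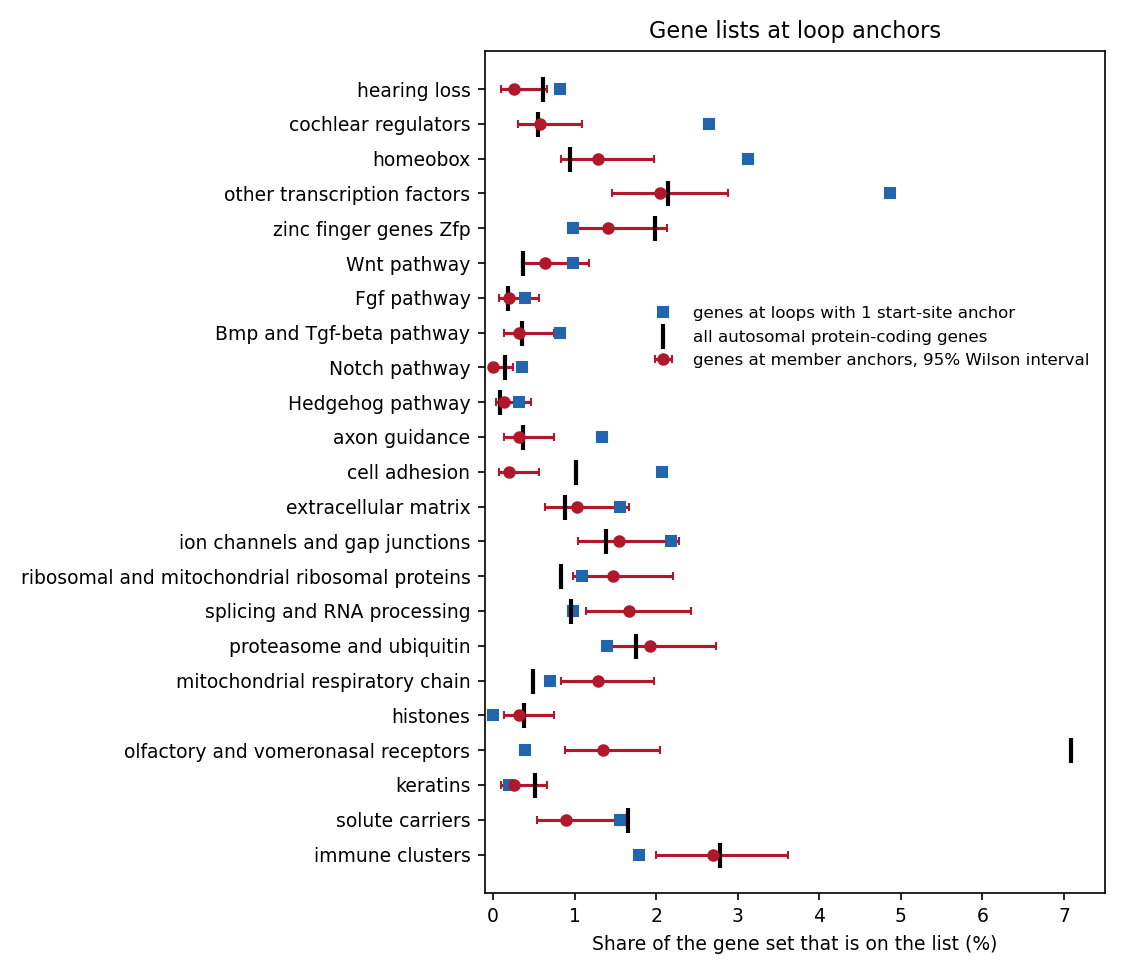
Share of genes on each of 23 lists (percent, x axis) among the 1560 genes at anchors of loops with start sites at both ends (circles, 95% Wilson intervals), the 2565 genes at loops with a start site at 1 anchor (squares) and all 20807 autosomal protein-coding genes (bars). Cochlear regulators stand at 0.577%, 2.65% and 0.553% in this order.

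Most loops of the set stood alone. When loops were linked through shared genes, 456 of the 618 shared no gene with another, 70 sets held 2 loops, 6 sets held 3 and 1 set held 4. No pair of nearest genes was joined by more than 1 loop. An anchor bin was used by a second loop of any kind in 198 of the loops (32.0%, 28.5% to 35.8%), against 43.9% (42.7% to 45.2%) of the other autosomal loops. No bin was used by 3 loops of the set, and 116 genes stood in 2 or more of them.
The set of 4 lies on chromosome 1 and is built around Nek2, a centrosomal kinase and 1 of the 2 genes in 3 loops of the set. Nek2 was joined to Traf5, an adaptor of tumour necrosis factor receptors, at 260 kb (FDR 0.000109) and to Rd3, a retinal degeneration gene, at 130 kb (FDR 0.0105). On its other side it was joined to Dtl and Ints7, whose start sites share a bidirectional region, at 230 kb (FDR 0.000385). The start site of Nek2 lay between the bare bins at its end of these loops and inside none of them. Dtl and Ints7 were joined in turn to Nenf and Tmem206 at 250 kb (FDR 0.0124). Together these loops cover 790 kb and 7 genes.
The other gene in 3 loops was Slc16a8, a lactate transporter, on chromosome 15. It was joined to Csnk1e, a casein kinase of the circadian clock, at 220 kb (FDR 0.000354), to Kdelr3, a retrieval receptor of the endoplasmic reticulum, at 270 kb (FDR 0.0408) and to Dmc1, a recombinase of meiosis, at 350 kb (FDR 0.0464). Its loops all ran to the right, from neighbouring bins, and its start site lay in the bare bin only in the loop to Kdelr3. In a set of 3 loops on chromosome 12, Ppp2r5c, Dync1h1, the heavy chain of cytoplasmic dynein, and Mok were each joined to both others, at 140, 240 and 400 kb, with FDR values of 0.00458, 0.0104 and 0.0286. On chromosome 17, 1600014C23Rik was joined to Vegfa, the vascular growth factor, at 300 kb (FDR 0.000274) and to Mrps18a at 390 kb (FDR 0.000313), and Vegfa to Rsph9 at 100 kb (FDR 0.0486).

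**Figure D5:**
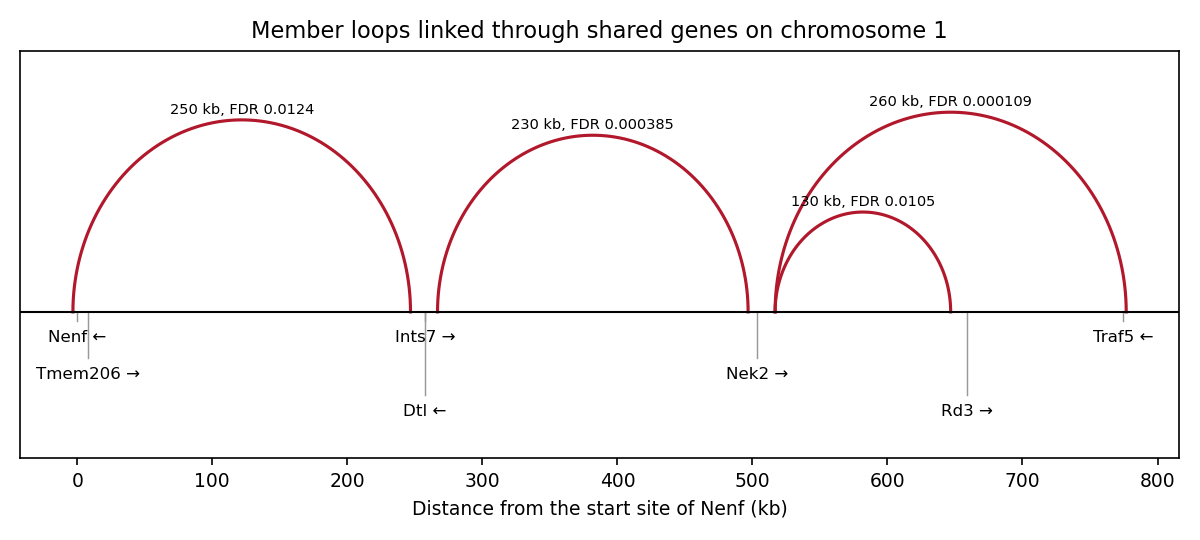
The 4 linked loops around Nek2 on chromosome 1 (arcs between bin centres, labelled with distance and FDR) over the 7 start sites, plotted as distance in kb from the start site of Nenf, with arrows for the strand. The loops of 230 kb on one side of Nek2 and of 130 and 260 kb on its other side start within 20 kb of each other. The start site of Nek2 lies between their bins and inside none of them.

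A best CTCF match with a single orientation was found at both anchors of 156 loops of the set. The matches pointed into the loop in 97 of them (62.2%, 54.4% to 69.4%), against 69.3% (66.8% to 71.8%) of 1327 other autosomal loops. Both pointed forward in 25 (16.0%), both reverse in 30 (19.2%) and outward in 4 (2.56%, 1.00% to 6.41%), against 13.3%, 14.3% and 3.09% of the others. The intervals of the inward share overlapped between the 2 groups. They also did so in each band of distance, with 66.3% against 70.8% under 200 kb, 55.6% against 63.8% at 200 to under 400 kb and 57.9% (11 of 19) against 72.8% at 400 kb or more. Any match within 1 mismatch at both anchors was found in 200 loops (32.4%, 28.8% to 36.2%), against 26.0% (24.9% to 27.1%) of the others. The anchor bins of the set had a median GC content of 46.3%, against 43.9% for the bins of the other loops, and the part of base composition in this difference was not tested.

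The promoters at the anchors were described from the window of 250 bases before to 50 after the start site, in the gene nearest to each bin centre (1164 genes). By a GC content of at least 50% and an observed over expected CpG ratio of at least 0.6, 49.7% (46.9% to 52.6%) were CpG-rich, against 42.5% of all autosomal genes and 55.3% (53.2% to 57.4%) of the nearest genes of loops with 1 start-site end. Both promoters were CpG-rich in 175 of the 618 loops (28.3%), 1 was in 269 (43.5%) and neither in 174 (28.2%). The letters TATAAA on the strand of the gene were found in 6.01% (4.79% to 7.53%), against 8.70% of all genes, and CCAAT or its complement ATTGG in 37.7%, against 38.6%. GGGCGG or its complement was found in 52.3% (49.4% to 55.2%), against 43.7% of all genes. The nearest genes of loops with 1 start-site end had the same share, 52.3%.
The CTCF consensus, on either strand and with at most 1 mismatch, lay in the promoter window of 61 of the 1164 genes (5.24%, 4.10% to 6.67%), against 2.81% of all genes and 5.58% of the nearest genes of loops with 1 start-site end. In 61 loops it lay at 1 end and in 2 loops at both. These were the loops from Rars, an arginyl-tRNA synthetase, to Wwc1, a regulator of the Hippo pathway whose gene crosses the loop, at 160 kb (FDR 0.000662), and from Scara5 to Clu, which encodes the secreted chaperone clusterin. Their matches are printed 5′ to 3′ on the strand of the gene, with the 14 matched bases in capitals, because these are the 2 loops with such letters in both promoters, and they were chosen after the values were seen.
Rars, chr11:35834583-35834612, minus strand: gttaggggGCAGCAGAGGGCGCgccctgaa
Wwc1, chr11:35980609-35980638, minus strand: ggactgtcCCACGAGGGGGCGCgtctcggg
Scara5, chr14:65666295-65666324, plus strand: gaggatggCCACAAGGGGGCAGgcgtagtc
Clu, chr14:65968456-65968485, plus strand: atgcccatGCGCCCCCTGGTGCcccccgct
The matches of Rars, Wwc1 and Scara5 lay on the strand of the gene, and that of Clu on the other strand. Those of Scara5 and Clu point towards each other, and those of Rars and Wwc1 point the same way. The match of Wwc1 lies only in the widened anchor, before the bare bin that starts at 35990001. Over the whole anchor bin of Scara5, the best matches on the opposite strands tied, so that this bin was given no orientation. The match of Clu ends before the start site, and the last bases of its run reach an untranslated exon of Clu.

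Gene-rich anchors were more common than at loops with 1 start-site end, but the rule was itself drawn on start-site positions. The shares in this paragraph therefore describe the set and are no result separate from the rule. Of the 1193 distinct anchor bins, 344 (28.8%, 26.3% to 31.5%) held 2 or more genes within the widened window, against 424 of 2420 start-site bins (17.5%, 16.1% to 19.1%). Head-to-head pairs with start sites within 1 kb were found at 5.03% (3.93% to 6.42%) and 4.13% (3.41% to 5.0%), with overlapping intervals. By chromosome, the share of loops with start sites at both ends ran from 5.70% on chromosome 12 to 14.2% on chromosomes 7 and 11, which had 5.36, 13.9 and 13.5 protein-coding genes per Mb, the lowest and the 2 highest of the 19 autosomes. The largest numbers were 54 on chromosome 2 and 50 on chromosome 7, and the smallest were 16 on chromosomes 14 and 19.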

How the data were processed

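Cochleae from mice labelled postnatal day 0 were profiled by Micro-C with crosslinking and micrococcal nuclease digestion. Per the labels and the study's methods, the authors aligned reads to mm10 with BWA-MEM, processed pairs with pairtools, merged 4 replicates (3 biological and 1 technical by the main text, all biological by the supplement) and called loops in 10 kb bins with Mustache (versions not given in the sources used here). The deposited list gives each loop's bins, an FDR (q-value) below 0.1 and a detection scale, a score without a unit. It gives no counts or depth, so a missing loop says nothing about contact. ATAC-seq and CUT&RUN samples were not analysed here.

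Loops were joined to GENCODE vM21 5′ ends in pandas 2.3.3 and numpy 2.4.6 (Python 3.11.15), with intervals from scipy 1.17.1 and plots from matplotlib 3.10.9. Protein families used blastp 2.17.0. The joining and the motif search were tested on simulated data. Shares have Wilson intervals, and no test over samples was possible. The members, lists and comparisons were chosen with earlier results of these data known. Loops were named by rule: the 10 of lowest FDR, the 5 shortest and 5 longest, family pairs, loops of hearing loss genes, cochlear regulators and 10 genes from the study's loci, regulators at both ends, and genes in 3 or more loops. Other loops were chosen after their values were seen. Alternatives covered the widening, the FDR, the scale, transcript ends, merged calls and the motif mismatches. One named loop and one pair of anchor sequences are not reported here.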

Additional observations from a re-analysis of the deposited data

How the results depend on the processing

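Of 78 alternative values computed over 7 results, 67 stayed within the counting interval or, for the number of loops, within 1.5 times. The number of loops was 100 with no widening, 316 with 5 kb, 1300 with 20 kb and 280 at an FDR below 0.01. The share with no start site between the anchors, 27.2%, was 22.0% with no widening, 31.6% with 20 kb, 32.5% at an FDR below 0.01 and 22.5% with the 5′ ends of all transcripts. The share with genes on the same strand, 46.4%, was 50.4% at an FDR below 0.01. The share at an FDR below 0.05, 79.8%, was 85.3% when calls within 100 kb at both anchors were merged with the lowest FDR kept, a choice that lowers the FDR by construction. The share of inward CTCF matches, 62.2%, was 87.5% (14 of 16) with no mismatch allowed. The number of loops changes with the widening and the FDR limit by construction. Except for this and the merging, the cause of these shifts was not tested. No paired analysis was possible because the loops were called on merged replicates, and for the same reason no replicate could be left out. The list gives no depth, so weak contacts that were missed cannot be counted.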
